A study of Rattus norvegicus with 6 samples.

Results

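Voltage-gated calcium channels were examined through the genes of their pore subunits, the α2δ-1 subunit and the β4 subunit in spinal cord tissues of SNI-NP and sham rats. The members were chosen by gene symbol: 10 symbols were listed, and 9 of them had a row among the 22050 genes of the deposited table. These were *Cacna1a*, *Cacna1b*, *Cacna1e*, *Cacna1c*, *Cacna1d*, *Cacna1g*, *Cacna1h*, *Cacna2d1* and *Cacnb4*. *Cacna1i*, a T-type pore subunit gene, was not analysed here. All 9 members passed the filter on low counts and were among the 14426 genes tested.

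RNA-seq had been performed on 3 rats with spared nerve injury (SNI), which cuts part of the sciatic nerve and leaves its sural branch intact, and on 3 rats with a sham operation. The animals were male Sprague-Dawley rats aged 8 to 10 weeks, with no genetic alteration and no other treatment named for either group. The time between operation and sampling, the cord segment and the side of the sequenced tissue are not given in the sources used here. Each library was counted as 1 replicate, and p-values then measure the spread between these 6 libraries.

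Each channel is built around an α1 pore subunit, which senses voltage and lets calcium through. High-voltage-activated pores also take up an intracellular β subunit and an extracellular α2δ subunit, which raise the number of channels at the membrane, whereas T-type pores open near the resting potential and work without them. In pain pathways, N- and P/Q-type channels drive transmitter release from the central terminals of sensory neurons. The α2δ-1 protein binds gabapentin and pregabalin, and ziconotide blocks the N-type pore.

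Totals ranged from 16670760 to 18151156 estimated counts per library, so that 0 counts allowed up to 0.167 to 0.18 CPM (3 counts scaled to the effective library size, covering counting error only). Markers of cord cells were present in every library, with *Gfap* of astrocytes between 332 and 863 CPM and *Chat* of motor neurons between 3.66 and 13.4 CPM. Genes of cells from outside the cord were prominent in every library. *Prx* of Schwann cells lay between 4032 and 6419 CPM, above *Gfap* throughout, and *Scn10a* of dorsal root ganglion neurons between 14.3 and 277 CPM. The members' levels are therefore those of tissue with peripheral cells in it. Levels of different genes do not measure how much of the tissue each cell type made up. The summed level of 8 dorsal root ganglion neuron genes was 408, 802 and 937 CPM in the sham group and 89.1, 1266 and 917 CPM in the SNI-NP group. SNI-NP replicate 1 thus stood apart with the lowest ganglion signal, and results are also given without it where that matters.

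The members were first compared between the groups. *Cacna2d1* and *Cacnb4*, the 2 auxiliary subunit genes, were lower in every SNI-NP rat than in any sham rat, at 60.8% and 38.4% of the mean sham level. They had an unadjusted p-value under 0.05 by edgeR's quasi-likelihood test. None of the 7 pore subunit genes did, although 6 of them had a fitted log2 fold change below 0. Among all genes tested, 5.94% were lower at this threshold and 4.91% were higher, against 2 and 0 of the 9 members. After adjustment for all genes tested, 0 of the 9 members passed 0.05 by edgeR or by DESeq2, with edgeR adjusted p-values from 0.406 to 0.955. Over the whole table edgeR gave 0 genes at an adjusted p-value under 0.05 and 1565 (10.8%) at an unadjusted one, and DESeq2 gave 210 at an adjusted one. The median log2 fold change was -0.21 over the 9 members and 0.01 over all genes tested.

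**Figure D1:**
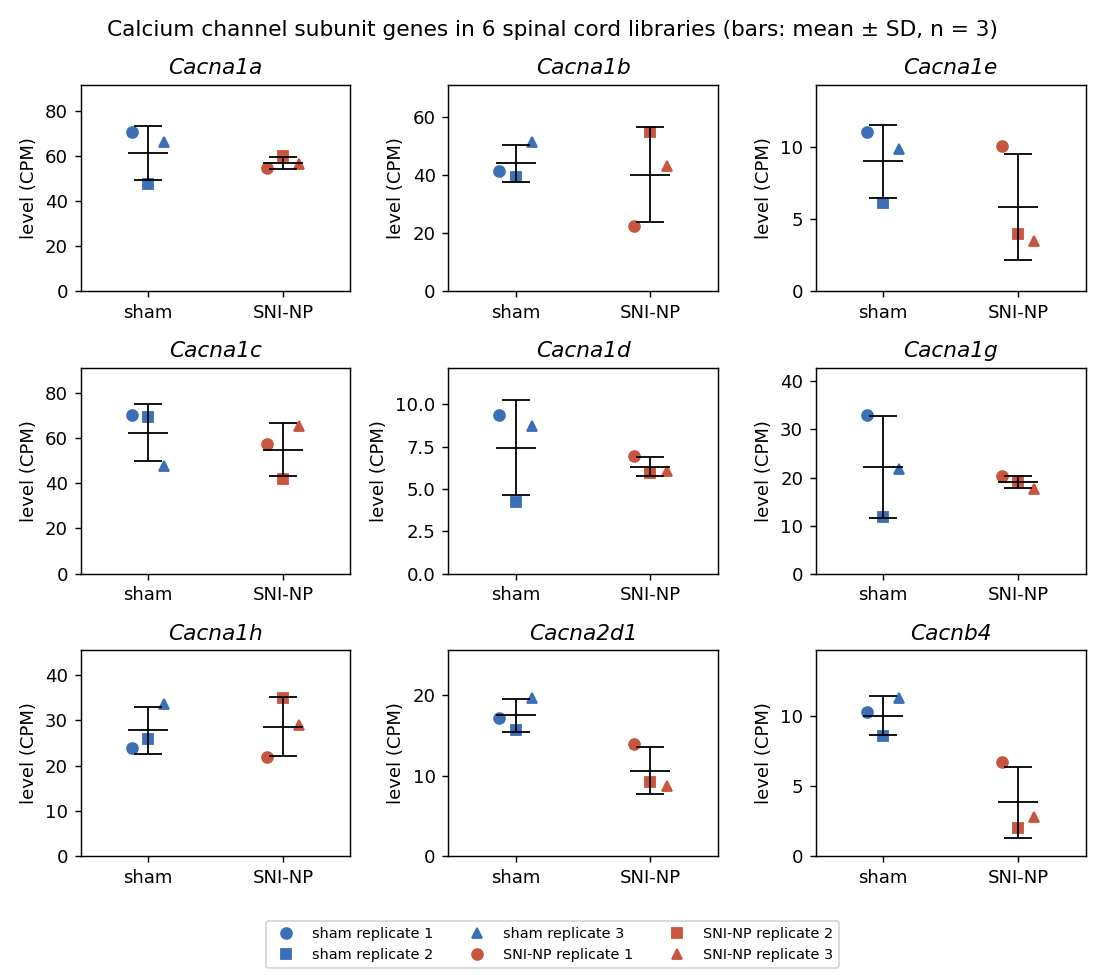
Level of each member in CPM (vertical axes, starting at 0) in the 3 sham libraries (blue) and the 3 SNI-NP libraries (red), with a symbol for each replicate number and the mean ± SD of each group as black bars. *Cacna2d1* and *Cacnb4* show no overlap between the groups, and the 7 pore subunit genes overlap.

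*Cacna2d1* (ENSRNOG00000033531) encodes α2δ-1, the extracellular subunit that carries the gabapentin site. Its counts were 286, 277 and 337 in the sham group and 242, 166 and 150 in the SNI-NP group. Scaled to library size, these were 17.2, 15.6 and 19.6 CPM in the sham group and 13.9, 9.22 and 8.69 CPM in the SNI-NP group. All SNI-NP values lay below all sham values, which was the case for 8.15% of all genes tested, and SNI-NP replicate 1 lay closest to the sham rats. The means were 17.5 ± 2.02 and 10.6 ± 2.88 CPM (SD, n = 3 per group). The fitted log2 difference (log2 fold change) was -0.72, its standard error (SE) 0.21, and it had a 95% interval from -1.22 to -0.22 (edgeR unadjusted p = 0.0109, adjusted p = 0.406). The 6 fits that each left out a library gave values between -0.96 and -0.63, with edgeR adjusted p-values from 0.0516 to 0.777. Without SNI-NP replicate 1, the SNI-NP library nearest to the sham rats, the log2 fold change was -0.96, with an edgeR adjusted p of 0.0516.

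*Cacnb4* (ENSRNOG00000007666) encodes β4, a cytoplasmic subunit that binds high-voltage-activated pores. Its counts were 171, 152 and 194 in the sham group and 117, 36 and 49 in the SNI-NP group. On the CPM scale it was at 10.3, 8.56 and 11.3 in the sham group and at 6.73, 1.999 and 2.84 in the SNI-NP group. The groups did not overlap, and SNI-NP replicate 1 was again the SNI-NP rat nearest to the sham rats. The mean went from 10.04 ± 1.38 to 3.86 ± 2.52 CPM (SD, n = 3 per group). Its difference was the largest of the 9 members, at -1.38 on the log2 scale (SE 0.43, 95% interval -2.38 to -0.38, edgeR unadjusted p = 0.0133, adjusted p = 0.424). Without SNI-NP replicate 1 the log2 fold change was -2.05 and the edgeR adjusted p was 0.0206, in a fit where 222 genes had an adjusted p-value under 0.05. Of 14577 genes in that fit, 1388 (9.52%) were lower and 519 higher at the unadjusted threshold. Because that library lay nearest to the sham rats, leaving it out enlarges the difference. The 6 fits that each left out a library gave values between -2.05 and -1.07, with edgeR adjusted p-values from 0.0206 to 0.777.

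The excitatory neuron gene *Slc17a6*, a vesicular glutamate transporter, was likewise lower in every SNI-NP rat, at 25.3, 26.8 and 27.0 CPM against 50.1, 34.8 and 49.999 CPM in the sham group. Its log2 fold change was -0.77 (SE 0.16, edgeR unadjusted p = 0.00164, adjusted p = 0.308). It was the only 1 of 5 interneuron genes with all SNI-NP values below all sham values. This was so for 0 of 8 neuron genes, 2 of which had a log2 fold change above 0, and for 8.15% of all genes tested. The part of neuronal content in the values of *Cacna2d1* and *Cacnb4* was not tested, and in bulk tissue fewer cells of a type and less RNA per cell cannot be told apart. The highest and the lowest of the 6 values of the dorsal root ganglion sum were both in the SNI-NP group, and the part of ganglion content was not tested either.

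Promoter sequences from RefSeq (build GRCr8) were available for 6 of the members, *Cacna1a*, *Cacna1b*, *Cacna1c*, *Cacna1d*, *Cacna1e* and *Cacna2d1*. Those of *Cacna2d1* and *Cacna1e* are shown because these were the members with the lowest fitted log2 fold changes for which a promoter was listed. Each runs from 250 bases before to 50 bases after the annotated start, 5′ to 3′, with GGGCGG boxes, a Sp1 motif, in capitals on either strand. The *Cacna2d1* window lies at chr4:20330098-20330397 on the minus strand and is the first of 3 listed for the gene, and the *Cacna1e* window lies at chr13:69444761-69445060 on the minus strand.
Cacna2d1: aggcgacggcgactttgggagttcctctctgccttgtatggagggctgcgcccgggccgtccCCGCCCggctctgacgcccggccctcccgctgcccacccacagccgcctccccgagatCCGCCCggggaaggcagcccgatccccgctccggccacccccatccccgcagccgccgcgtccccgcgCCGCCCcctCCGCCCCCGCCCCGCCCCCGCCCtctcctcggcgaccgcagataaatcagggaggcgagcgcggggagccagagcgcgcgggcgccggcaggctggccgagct
Cacna1e: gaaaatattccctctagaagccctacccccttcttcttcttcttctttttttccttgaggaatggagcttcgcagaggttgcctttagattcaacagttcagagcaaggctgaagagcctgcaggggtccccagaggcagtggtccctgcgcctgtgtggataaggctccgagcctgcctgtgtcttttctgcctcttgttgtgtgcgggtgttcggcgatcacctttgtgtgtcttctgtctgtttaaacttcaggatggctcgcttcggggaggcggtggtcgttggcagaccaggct
The *Cacna2d1* window was 78.3% G and C and held 7 such boxes, some of them overlapping, whereas that of *Cacna1e* was 53.7% G and C and held 0. A box was found in 4 of the 6 members' windows and in 34.9% of the 27457 promoters in the table. The 4 were those of *Cacna1a*, *Cacna1b*, *Cacna1d* and *Cacna2d1*, so that the motif occurred both in a member below the threshold and in members above it. Neither a TATAAA box nor the cAMP response element TGACGTCA was found in any of the 6 windows, against 14.3% and 1.91% of all promoters. A CCAAT box was found in 2 of the 6, *Cacna1b* and *Cacna1c*, and in 37.7% of all promoters.

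The presynaptic pores came next. *Cacna1a* (ENSRNOG00000052707), the P/Q-type pore, was at 70.3, 47.5 and 65.9 CPM in the sham group and at 54.8, 59.8 and 56.1 CPM in the SNI-NP group. The SNI-NP values all lay inside the sham range, and the log2 fold change of -0.11 (SE 0.15) had a 95% interval from -0.47 to 0.25. Without sham replicate 2, where it was lowest, it was -0.26 (edgeR unadjusted p = 0.0445, adjusted p = 0.328), and without sham replicate 1, where it was highest, it was -0.01. *Cacna1b* (ENSRNOG00000004560), the N-type pore that ziconotide blocks, was at 41.5, 39.2 and 51.3 CPM in the sham group and at 22.4, 54.6 and 43.1 CPM in the SNI-NP group. Both the lowest and the highest value were thus in the SNI-NP group, the lowest in SNI-NP replicate 1. Its log2 fold change of -0.14 (SE 0.30, 95% interval -0.84 to 0.56) became 0.15 without that library.

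*Cacna1e* (ENSRNOG00000002863), the R-type pore, was at 11.05, 6.14 and 9.90 CPM in the sham group and at 10.1, 3.94 and 3.48 CPM in the SNI-NP group. SNI-NP replicates 2 and 3 lay below every sham rat, and SNI-NP replicate 1 lay among them. The log2 fold change was -0.63 with an SE of 0.44 and a 95% interval from -1.66 to 0.41. Without SNI-NP replicate 1 it was -1.28, with an edgeR unadjusted p of 0.00389 and an adjusted p of 0.106, so that this library decided on which side of the unadjusted threshold the gene lay.

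Of the L-type pores, which couple depolarization to gene expression and open over longer depolarizations, *Cacna1c* (ENSRNOG00000007090) was at 70.1, 69.4 and 47.8 CPM in the sham group and at 57.1, 42.0 and 65.3 CPM in the SNI-NP group. *Cacna1d* (ENSRNOG00000013147), whose product opens at more negative potentials, was at 9.37, 4.23 and 8.73 CPM in the sham group and at 6.96, 5.94 and 6.09 CPM in the SNI-NP group. The groups overlapped for both genes. The 95% intervals of the log2 fold change ran from -0.67 to 0.30 around -0.19 for *Cacna1c* and from -0.95 to 0.48 around -0.23 for *Cacna1d*. The 6 fits that each left out a library gave values between -0.38 and -0.03 for *Cacna1c*. Without sham replicate 2, where *Cacna1d* was lowest, its log2 fold change was -0.51 and its edgeR unadjusted p 0.0273.

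Of the T-type pores, *Cacna1g* (ENSRNOG00000060528) was at 33.0, 11.7 and 21.8 CPM in the sham group and at 20.2, 19.3 and 17.7 CPM in the SNI-NP group. Its sham values spanned both extremes, with a coefficient of variation of 48.0% in the sham group and 6.81% in the SNI-NP group. The log2 fold change was -0.21 (SE 0.33, 95% interval -0.99 to 0.56), 0.18 without sham replicate 1 and -0.52 without sham replicate 2. *Cacna1h* (ENSRNOG00000033893), the T-type pore of many sensory neurons, was the only member with a fitted value above 0. It was at 23.8, 25.9 and 33.6 CPM in the sham group and at 21.97, 34.9 and 28.9 CPM in the SNI-NP group, and its log2 fold change was 0.04 (SE 0.21, 95% interval -0.44 to 0.52). It took the opposite sign without sham replicate 1 (-0.07) or SNI-NP replicate 2 (-0.13).

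**Figure D2:**
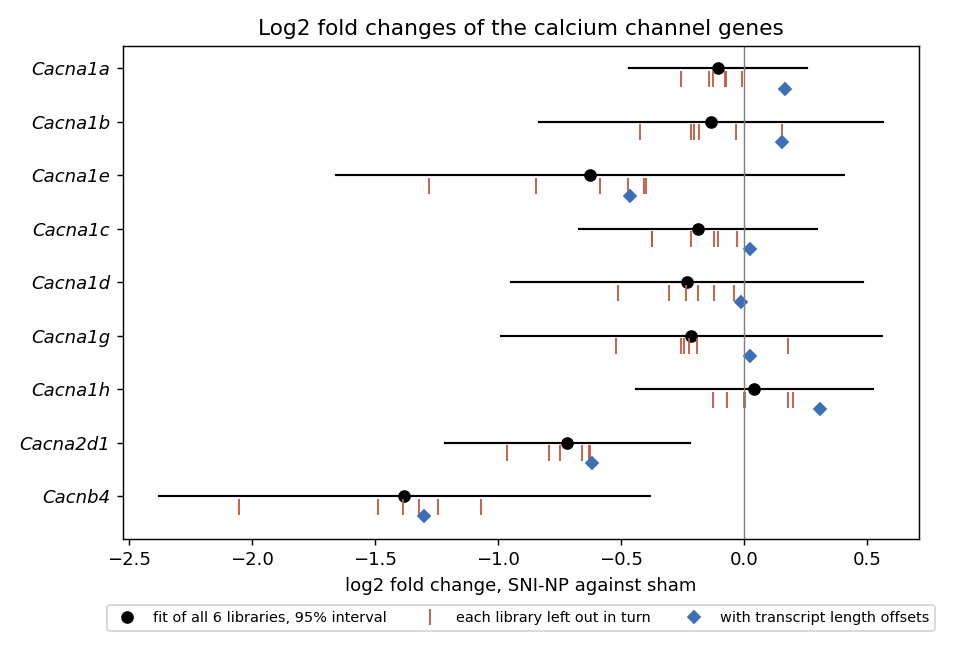
Log2 fold change of each member in SNI-NP against sham rats (horizontal axis), with the fit of all 6 libraries and its 95% interval in black, the fits that each left out 1 library as red ticks, and the fit with transcript length offsets as blue diamonds. The intervals of *Cacna2d1* and *Cacnb4* lie below 0, those of the 7 pore genes include 0, and 5 of the 6 negative values of pore genes lie near or above 0 with length offsets, *Cacna1e* being the exception.

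The members have long transcripts, and length moved with the fold changes. The lengths implied by the counts and FPKM values ran from 3790 bases for *Cacnb4* and 3944 for *Cacna2d1* to 8914 for *Cacna1a*, which placed all 9 members in the longest of 5 equal classes of the 14147 tested genes with a length. In that class the median log2 fold change was -0.06, and 10.7% of the genes were lower at an unadjusted p-value under 0.05, against 3.75% in the shortest class. The trend was not shared evenly by the libraries of a group. Spearman correlations of centered log2 CPM with length were 0.18, 0.003 and 0.03 in sham replicates 1 to 3. In SNI-NP replicates 1 to 3 they were 0.08, -0.26 and 0.02. With offsets that removed the trend with length, the log2 fold change was -0.62 for *Cacna2d1* and -1.30 for *Cacnb4*, with edgeR unadjusted p-values of 0.014 and 0.0127. The median over the members was 0.02 in that fit, and *Cacna1a*, *Cacna1b*, *Cacna1c* and *Cacna1g* turned from negative to positive. The same offsets moved the median of all genes to 0.05 and the share of higher genes among those past the unadjusted threshold from 45.2% to 64.9%. With library totals in place of TMM factors that share was 29.4%.

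**Figure D3:**
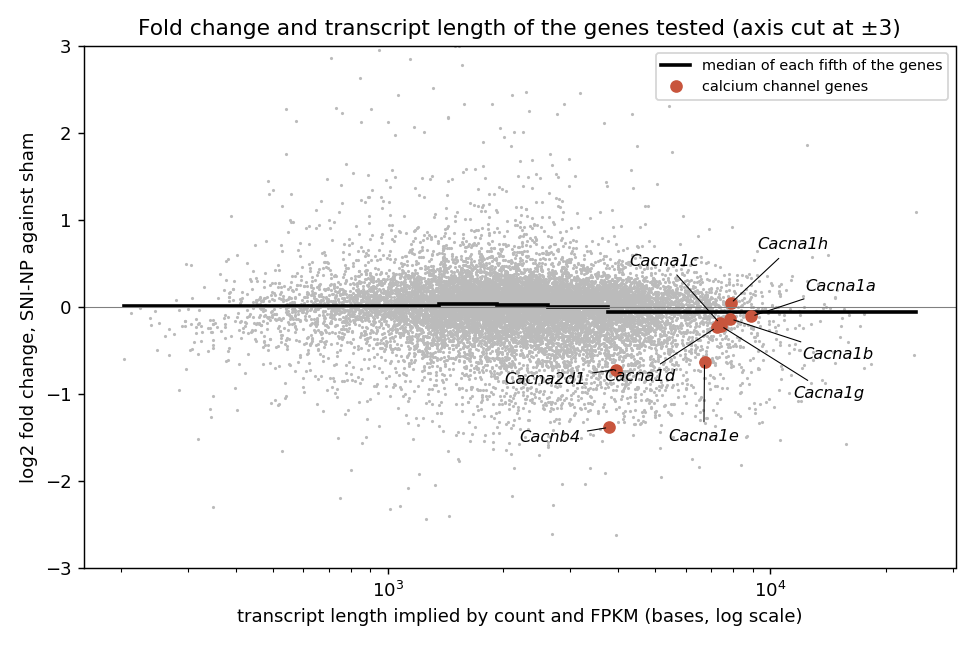
Log2 fold change in SNI-NP against sham rats (vertical axis, cut at 3 in either direction) against transcript length in bases (horizontal axis, log scale) for the tested genes with a length (grey), with the median of each of the 5 length classes as black lines and the 9 members in red. The median is -0.06 in the longest class, where *Cacnb4* and *Cacna2d1* are the shortest members and lie farthest below it.

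Levels were then compared between genes on the FPKM scale, which accounts for length. In sham rats *Cacna1c* was highest, at 8.58 ± 1.80 FPKM, followed by *Cacna1a* at 6.95 ± 1.24 and *Cacna1b* at 5.68 ± 0.742 (SD, n = 3), and the ranges of these neighbours overlapped. *Cacna2d1* came next at 4.50 ± 0.439 FPKM, with every sham value below every one of *Cacna1b*. *Cacna1h* (3.58 ± 0.649), *Cacna1g* (3.01 ± 1.40) and *Cacnb4* (2.69 ± 0.326) followed with overlapping ranges, and *Cacna1e* (1.36 ± 0.363) and *Cacna1d* (1.02 ± 0.358) lay below all values of *Cacnb4*. In SNI-NP rats the first 3 genes kept their order. *Cacna2d1* at 2.64 ± 0.642 FPKM stood below *Cacna1h* at 3.59 ± 0.901, although the ranges of these 2 genes overlapped in both groups, and *Cacnb4* at 0.990 ± 0.624 overlapped with *Cacna1d* at 0.873 ± 0.0586 and *Cacna1e* at 0.850 ± 0.513 (SD, n = 3).

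For no pore type was the difference in its share of the pore subunits larger than the spread between rats. The 7 pore genes summed to 30.2 ± 2.89 FPKM in the sham group and 26.5 ± 2.51 FPKM in the SNI-NP group (SD, n = 3 per group, exact two-sided permutation p = 0.3). P/Q-, N- and R-type pores together made up 46.3% ± 4.06 of this sum in the sham group and 45.7% ± 4.66 in the SNI-NP group (SD, n = 3 per group). L-type pores made up 32.02% ± 6.44 and 31.2% ± 6.51, and the T-type pores 21.7% ± 2.69 and 23.0% ± 1.91. Exact permutation p-values were from 0.6 to 0.9 for these 3 shares and at least 0.4 for those of the 7 single pore genes. They were not adjusted for the number of shares tested, and the smallest that 3 rats against 3 can give is 0.1. *Cacnb4* stood at 8.91% ± 0.863 of the pore sum in the sham group and 3.91% ± 2.87 in the SNI-NP group, a difference at that smallest exact permutation p, and *Cacna2d1* at 14.96% ± 1.64 and 10.2% ± 3.57 (exact permutation p = 0.2). Both rest on the same measurements as the levels of these genes given above, where the groups were already separate. They are therefore no further support for a difference.

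**Figure D4:**
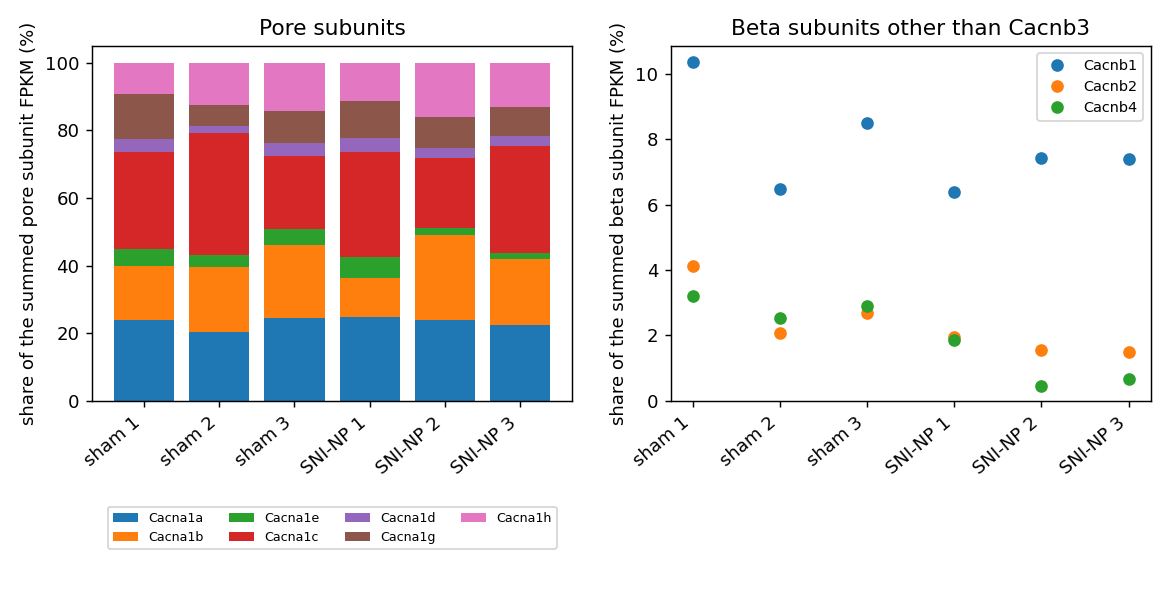
Left, share of each pore subunit gene in the summed pore subunit FPKM of each library, in percent, stacked to 100. Right, share of *Cacnb1*, *Cacnb2* and *Cacnb4* in the summed FPKM of the 4 β subunit genes of each library, in percent; *Cacnb4* lies between 2.54 and 3.21 in the sham group and between 0.447 and 1.86 in the SNI-NP group.

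Among the other auxiliary genes, which were looked at beside *Cacnb4* and *Cacna2d1* after their values were seen, *Cacnb3* was the main β gene per length, at 85.7% ± 3.30 of the summed β FPKM in the sham group and 90.3% ± 0.420 in the SNI-NP group (SD, n = 3 per group). *Cacnb4* made up 2.88% ± 0.332 and 0.994% ± 0.762, and *Cacnb2* 2.96% ± 1.05 and 1.67% ± 0.249. In these 3 shares the groups did not overlap, and shares of the same sum depend on each other. In CPM the groups overlapped for *Cacnb3* and *Cacnb2*, and only *Cacnb4* of these 3 genes was separate. The log2 fold changes of *Cacnb3* (0.30, SE 0.13) and *Cacnb2* (-0.61, SE 0.28) had edgeR unadjusted p-values of 0.0557 and 0.0626. Among the α2δ genes, *Cacna2d1* took 17.3% ± 2.85 of the summed FPKM in the sham group and 13.2% ± 5.29 in the SNI-NP group, after *Cacna2d2* (43.1% ± 5.71 and 46.0% ± 4.63) and *Cacna2d3* (39.3% ± 3.04 and 40.5% ± 9.48), and the groups overlapped for all of them.

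Of the 16 remaining channel subunit genes, 12 were tested. *Cacna1f*, the L-type pore of photoreceptors, was not among these, with at most 0.116 CPM in any library, below the limit that 0 counts allow. One of the 12 was lower and 1 was higher at an unadjusted p-value under 0.05, against 5.94% and 4.91% of all genes. The lower one was *Cacng2*, encoding stargazin, a partner of AMPA receptors, at 12.7, 7.10 and 12.7 CPM in the sham group and 7.995, 3.33 and 3.88 CPM in the SNI-NP group (log2 fold change -1.10, SE 0.39). The higher one was *Cacna1s*, the pore of skeletal muscle, at 0.780, 1.01 and 0.698 CPM in the sham group and 3.16, 0.611 and 4.81 CPM in the SNI-NP group. It was high in SNI-NP replicates 1 and 3 and not in replicate 2. The summed level of 5 skeletal muscle genes was 12.1, 72.1 and 30.7 CPM in the sham group and 169, 10.2 and 423 CPM in the SNI-NP group, with the same 2 libraries on top. For *Acta1*, the skeletal α-actin gene, the log2 fold change was 2.18 (SE 1.11), and for *Myh4*, a fast myosin gene, 3.01 (SE 1.16, edgeR unadjusted p = 0.0340). The part of muscle RNA in the value of *Cacna1s* was not tested.

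Of 12 tested rows of channel regulators, 1 was higher and 1 lower at this threshold, against 4.91% and 5.94% of all genes. *Rem1*, an RGK-family GTPase that inhibits high-voltage-activated channels, was at 5.52, 7.04 and 6.58 CPM in the sham group and 10.5, 8.497 and 10.96 CPM in the SNI-NP group. Every SNI-NP value was above every sham value, as for 10.4% of all genes tested, and the log2 fold change was 0.65 (SE 0.19, edgeR unadjusted p = 0.00967, adjusted p = 0.396). *Cabp1*, encoding a neuronal calcium-binding protein that modulates the pores, had a log2 fold change of -0.54 (SE 0.20). The 5 genes of α2δ-1 ligands, thrombospondins and *Lrp1*, gave 0 calls by edgeR at the unadjusted threshold, with *Thbs1* at 0.01 (SE 0.30) on the log2 fold change scale.

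Of 9 presynaptic channel partners, 3 were lower and 0 were higher at the unadjusted threshold, against 5.94% and 4.91% of all genes. Of the 2766 tested genes at least as long as *Cacnb4*, the shortest member, 10.9% were lower. *Rims1* and *Rims2* have 5488 and 4479 bases and *Snap25* has 1716, and the part of length in their values was not tested. *Rims1* and *Rims2*, which tether channels to the release site, had log2 fold changes of -0.61 (SE 0.25, edgeR unadjusted p = 0.0461) and -0.44 (SE 0.18, edgeR unadjusted p = 0.0460). *Snap25*, a SNARE protein gene that is also a neuron marker, had one of -0.65 (SE 0.23, edgeR unadjusted p = 0.0258). The groups overlapped for each of these 3 genes, and their edgeR adjusted p-values were 0.454, 0.454 and 0.436. Of 8 genes acted on by calcium entry, 2 were lower and 0 higher, against the same shares of all genes. *Kcnma1*, the large-conductance calcium-activated potassium channel, was at 13.1, 11.4 and 12.8 CPM in the sham group and 7.71, 8.89 and 8.23 CPM in the SNI-NP group, a log2 fold change of -0.59 (SE 0.15, edgeR unadjusted p = 0.00541, adjusted p = 0.348). *Ppp3ca*, the catalytic subunit of calcineurin, had one of -0.74 (SE 0.21), and in neither of these 2 genes did the groups overlap, all SNI-NP values being below all sham values as in 8.15% of all genes tested. *Camk2a*, a calcium/calmodulin kinase gene, had a log2 fold change of -0.07 (SE 0.28).

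Marker lists of cell types are given beside these values, and each sum is weighted toward the most abundant genes of its list. They do not measure the part of cell content, which was not tested. Of 8 neuron genes, 2 were lower at the unadjusted threshold, *Map2* (log2 fold change -1.22, SE 0.42) and *Snap25*, and 0 were higher. For this list and those that follow, the shares of all genes were 5.94% lower and 4.91% higher. *Rbfox3* was at -0.29 (SE 0.27), and 2 of the 8 neuron genes lay above 0, *Tubb3* (0.20, SE 0.37) and *Stmn2* (0.11, SE 0.39). The summed level of the 8 neuron genes was 4055 to 5997 CPM in the sham group and 2483 to 5547 CPM in the SNI-NP group. Of 5 interneuron genes, *Slc17a6* was lower, and their sum was 166 to 460 CPM in the sham group and 181 to 270 CPM in the SNI-NP group. None of the 5 tested motor neuron genes (sums of 305 to 486 and 165 to 753 CPM) or the 8 dorsal root ganglion neuron genes passed the unadjusted edgeR threshold, with *Chat* at -0.65 (SE 0.43) and *Scn10a* at 0.01 (SE 0.85). *Prph*, at 130 to 722 CPM, made up most of the motor neuron sum in every library. The astrocyte sum was 749 to 1829 CPM in the sham group and 896 to 1267 CPM in the SNI-NP group, with 1 of its 6 genes, *Slc1a2*, lower (-1.08, SE 0.39) and *Gfap* at -0.20 (SE 0.33).

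Of 5 Schwann cell genes, 1 was higher and 0 were lower at the unadjusted edgeR threshold, against 4.91% and 5.94% of all genes for this and the lists below. The higher one was *Prx* (log2 fold change 0.36, SE 0.15), with *Egr2* at 0.22 (SE 0.23) and *Pmp2* at 0.02 (SE 0.21). Of 5 smooth muscle and endothelium genes (583 to 618 and 633 to 804 CPM), *Acta2* and *Tagln* were higher (0.41 and 0.29, SEs 0.15 and 0.12), with *Myh11* at 0.26 (SE 0.15). All 3 tested erythroid genes (317 to 684 and 675 to 1516 CPM) were higher, *Alas2* (1.1, SE 0.36), *Slc4a1* (1.85, SE 0.49) and *Hbb* (0.95, SE 0.37, from counts that were not whole numbers). None of the 6 microglia genes (232 to 306 and 251 to 277 CPM) or the 6 oligodendrocyte genes (30372 to 40884 and 30040.1 to 40088 CPM) passed the unadjusted edgeR threshold, with *Aif1* at 0.04 (SE 0.28) and *Mbp* at 0.02 (SE 0.17).

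Across the 6 libraries, some members were ordered as marker sums were, whatever the group. *Cacna1h* was ordered as the dorsal root ganglion sum in 15 of 15 pairs of libraries, from 21.97 CPM in SNI-NP replicate 1 (sum 89.1 CPM) to 34.9 CPM in SNI-NP replicate 2 (sum 1266 CPM). In 14 of 15 pairs *Cacna1h* was also ordered as the motor neuron sum, which was mostly *Prph*. *Chat* of the same list ran otherwise, highest in sham replicate 1 (13.4 CPM) and lowest in sham replicate 2 (3.66 CPM). *Cacna1b* was ordered as the ganglion sum in 14 of 15. *Cacna1g* was ordered as the interneuron sum and as the astrocyte sum in 15 of 15 pairs, from 11.7 CPM in sham replicate 2 to 33.0 CPM in sham replicate 1. *Cacna1d* was ordered as each of these 2 sums in 14 of 15. These orders were looked for over 99 combinations of 9 members and 11 marker lists after the values were seen, and 7 of them reached 14 pairs or more. They are a description of 6 libraries, and the part of cell content in the members' levels was not tested.

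**Figure D5:**
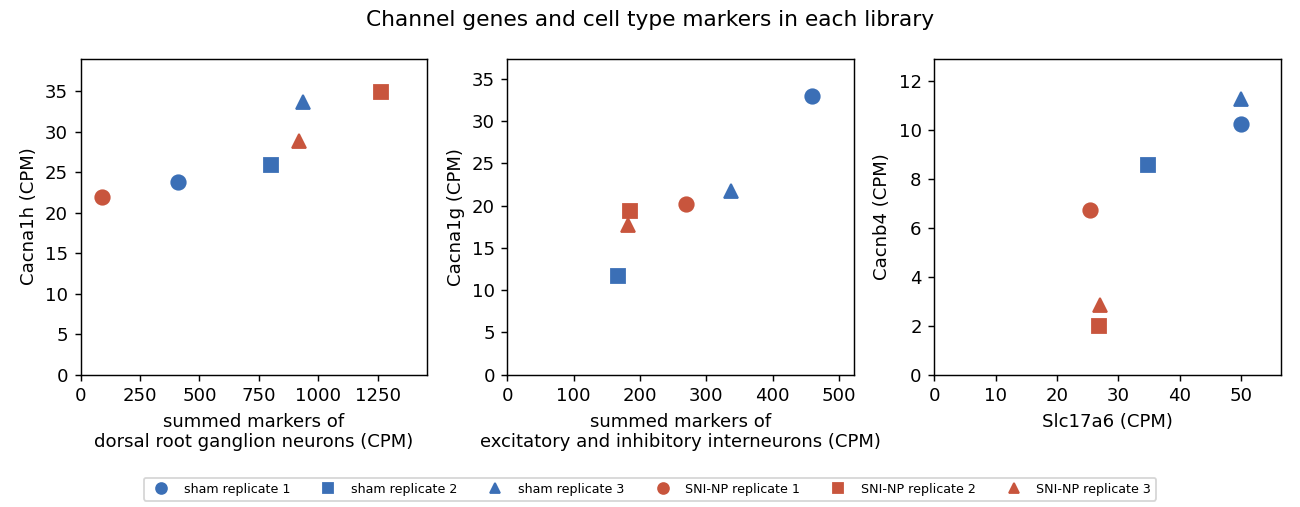
Level of *Cacna1h*, *Cacna1g* and *Cacnb4* in CPM (vertical axes) against the summed CPM of 8 dorsal root ganglion neuron genes, the summed CPM of 5 interneuron genes and the CPM of *Slc17a6* (horizontal axes), 1 point per library. *Cacna1h* and *Cacna1g* follow the order of the marker sum in 15 of 15 pairs of libraries, and *Cacnb4* and *Slc17a6* are both lower in the 3 SNI-NP libraries. *Slc17a6* is the only 1 of the 5 interneuron genes whose groups do not overlap.

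The members' median profile, centered on the log2 CPM scale, was 0.35, -0.10 and 0.34 in the sham group and 0.04, -0.16 and -0.13 in the SNI-NP group, so that sham replicate 2 lay with the SNI-NP rats. The 5 genes nearest to it were *Gng8*, *Zhx3*, *Sema7a*, *Amot* and *Ephb1*, with root mean square differences between 0.07 and 0.08 log2 units over the 6 libraries.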

How the data were processed

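RNA-seq of spinal cord tissues was analysed in 3 sham and 3 SNI-NP rats, grouped by the sample labels. The authors mapped reads to the rat genome they call Rat6 and kept unique sequences. The submitters' processing notes name FastQC, STAR and HTSeq. The annotation release and the use of strand are not given in the sources used here. Per gene, the authors deposited FPKM values, scaled by length and library total, and unscaled estimated counts. The counts of the 9 members were whole numbers in every library. The lists and members were chosen with earlier results of these data known.

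Counts were rounded and fitted with edgeR version 4.0.16 in R version 4.3.3 (filterByExpr, TMM, quasi-likelihood test, condition as the only term), with Benjamini-Hochberg adjustment over 14426 genes. CPM values use TMM-scaled library sizes. Standard errors are the fitted log2 fold change divided by the root of the F statistic. The common biological coefficient of variation was 0.223. Lengths were taken from count, total and FPKM where FPKM was at least 0.5. Scripts were tested on simulated data.

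Alternatives were DESeq2 version 1.42.0, RLE and upper-quartile factors, library totals, no filter, at least 10 counts in every library, the replicate number as a block, loess length offsets (span 0.5) with and without the block, FPKM ratios, and leaving out each library. Named genes were all members, the first gene of each list with up to 3 others of smallest unadjusted p-value under 0.05, and the 5 genes nearest to the members' median profile; other α2δ and β genes were named after their values were seen. The first gene of one marker list and that list's sum are not reported here. No replicate pair had identical counts. One listed symbol, *Calm2*, has 2 rows, and similar calmodulin copies can share reads.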

Additional observations from a re-analysis of the deposited data

How the results depend on the processing

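*Cacna2d1* and *Cacnb4* were lower with an unadjusted p-value under 0.05 in each of 15 refits, between -0.96 and -0.62 and between -2.05 and -1.07 on the log2 scale. Their adjusted p-values ran from 0.0516 to 0.777 and from 0.0206 to 0.777, and DESeq2 gave 0.0988 and 0.0718. The number of members lower at the unadjusted threshold was 2, and 2 to 5 when a library was left out: 5 without sham replicate 2 (with *Cacna1a*, *Cacna1d* and *Cacna1g*) and 3 without SNI-NP replicate 1. Of all genes tested, 8.32% and 9.52% were lower in these 2 fits, against 5.94% with all 6 libraries. The members' median log2 fold change of -0.21 ran from -0.51 (without sham replicate 2) to -0.12 when a library was left out. It was 0.0224 with length offsets and 0.029 with length offsets and the replicate block, and in these 2 fits *Cacna1a* was at 0.17 and 0.16, *Cacna1b* at 0.16 and 0.0164, *Cacna1c* at 0.0239 and 0.029, and *Cacna1g* at 0.0224 and 0.11, with *Cacna1d* at 0.0494 in the second. Leaving out a library moved *Cacna1b* between -0.42 and 0.15, *Cacna1g* between -0.52 and 0.18, and *Cacna1h* between -0.13 and 0.20. Of 46 tested rows of other subunits, regulators, ligands, partners and targets, 9 passed the unadjusted threshold, against 10.8% of all genes, and 2 to 15 did when a library was left out: 3 without sham replicate 1 or 3, 15 without sham replicate 2, 2 without SNI-NP replicate 3. The calls over all genes moved too. Without sham replicate 2, 1214 genes were lower and 920 higher of 14593. Without SNI-NP replicate 3, 610 were lower and 307 higher of 14592. Without sham replicate 1 it was 599 and 309 of 14616, and without sham replicate 3 it was 644 and 375 of 14616. Apart from the removal of the length trend and of a library, the cause was not tested.

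The sample labels name no pairing of the rats by replicate number. Deviations of same-numbered rats correlated at 0.20, -0.14 and 0.04, and 1 of the 3 SNI-NP rats correlated best with its own number. These values cannot settle whether same-numbered rats were handled together. With the replicate block, 2 members were lower, the log2 fold change was -0.74 for *Cacna2d1* and -1.54 for *Cacnb4*, and 871 genes were lower and 448 higher, against 857 and 708 without it. At 36 to 194 counts per library, *Cacnb4* was among the least deeply measured members, and *Cacna1e* and *Cacna1d* had 60 to 184 and 75 to 156 counts.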
